A study of Homo sapiens with 48 samples.

Results

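BHT, BHT_CHO and BHT_COOH are 3 related compounds whose effects on differentiating H9 human embryonic stem cells were compared in 6 RNA-seq libraries, 2 for each compound, of the 48 libraries in the series. They were chosen by name and set against the 12 libraries of the antioxidants AO168_O, AO_2246, BHA, DG, DTBP and TBHQ, also 2 for each, and then against one another. H9 is an established line of wild-type human embryonic stem cells, and in all 18 libraries it was grown as a monolayer in E6, a medium without added growth factors of pluripotency, for 8 days in the presence of the compound. DMSO, a common solvent, is not the reference here, and its 2 libraries are given beside single genes only. Reading BHT_CHO and BHT_COOH as the aldehyde and the acid of BHT rests on the names, and placing AO168_O, AO_2246, DG and DTBP among the antioxidants is an assumption from theirs. Doses are not in the labels, so every difference is one between the exposures used. All compounds were given for the same 8 days. The labels do not say whether the 2 replicates of a compound were separate cultures, so p-values measure the spread between libraries.

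BHT, or butylated hydroxytoluene, is a phenol with bulky tert-butyl groups on both sides of its hydroxyl and a methyl group opposite, and it stops lipid peroxidation by giving up the hydrogen of that hydroxyl. Oxidation of the methyl group, known in mammals, gives first the aldehyde and then the carboxylic acid, so the 3 compounds form a short series that differs at that one carbon. Phenolic antioxidants are known to act on NRF2, the transcription factor that raises NQO1 and glutathione enzymes, and in rodent liver BHT raises cytochromes P450 of the CAR and PXR type. Aldehydes are oxidised in cells by the aldehyde dehydrogenases, some of which also make retinoic acid, a signal that steers early neural and ectodermal fate.

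The 6 libraries held between 19362102 and 20059142 counts, against 17918844 to 20096084 over all 18. Markers of the labelled lineage were present: 17 of 20 pluripotency genes had a mean of at least 1 CPM, the count of a gene scaled to the size of its library, and POU5F1, the central factor of pluripotency, measured 1046 and 519 CPM with BHT, 1022 and 552 CPM with BHT_CHO and 953 and 629 CPM with BHT_COOH. Of the anterior neural ectoderm genes, 20 of 22 had a mean of at least 1 CPM, whereas this held for 4 of 12 mesendoderm and 2 of 12 endothelium and blood genes, and SOX17, which marks endoderm, was at 0 in all 6. The root mean square of log2 CPM differences was 0.327 to 0.346 between second libraries of 2 BHT compounds, 0.369 to 0.465 between first ones, and 0.402 to 0.564 between both libraries of 1 compound among the 9 antioxidants. Genes were also split into 3 equal classes by the GC content of their transcripts. In the low-GC class relative to the high-GC class, the first BHT library stood at a log2 difference of -0.22 and the first BHT_CHO library at -0.17, the first BHT_COOH library at 0.11, and the 3 second libraries between 0.0053 and 0.017. A library of AO_2246 had the lowest value of the 18, -0.33, and one of AO168_O the highest, 0.22.

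The first question was whether the BHT compounds as a family had an effect that other antioxidants did not. No gene of 16113 tested (0%) differed between the 6 BHT libraries and the 12 others at an adjusted p under 0.05 in edgeR's quasi-likelihood test (Benjamini-Hochberg adjustment, lowest adjusted p = 1.00), and DESeq2 gave 0 as well. At an unadjusted p under 0.05 stood 509 genes (3.16%), 267 higher (1.66%) and 242 lower (1.5%), against 430 by DESeq2. The 95% interval stayed within 1 log2 unit either side of 0 for 94.7% of genes and reached beyond it for the rest. No gene had all 6 BHT libraries above, or all 6 below, the 12 others (0%). Of the 509 genes, 128 of the higher and 43 of the lower ones lay in the high-GC class, and 29 and 130 in the low-GC class. With a correction for GC content in each library, added after seeing the data, 494 genes stood at an unadjusted p under 0.05 and 0 passed.

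RCAN3, which encodes a regulator of the phosphatase calcineurin, measured 24.7 and 27.9 CPM with BHT, 28.6 and 27.6 CPM with BHT_CHO and 29.96 and 26.8 CPM with BHT_COOH, while the 12 other libraries had a lowest, median and highest value of 20.6, 23.8 and 27.7 CPM. It was thus on the high side with all 3 compounds, yet the sets overlapped, and the family's log2 fold change was 0.19 (SE 0.048, 95% interval 0.094 to 0.29, adjusted p = 1.00 in edgeR). COPG1, a subunit of the coatomer coat of Golgi vesicles, stood at 159 and 158 CPM with BHT, 151 and 147 CPM with BHT_CHO and 144 and 139 CPM with BHT_COOH, with 119, 133 and 149 CPM as lowest, median and highest of the others and 135 and 131 CPM with DMSO. Its level was highest with BHT itself and lowest with the acid, with a family log2 fold change of 0.16 (SE 0.043). GOLGA3, a Golgi matrix protein, and MEX3D, an RNA-binding protein, followed with log2 fold changes of 0.21 (SE 0.061) and 0.23 (SE 0.069).

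LRRC24, which encodes a leucine-rich repeat membrane protein, had the largest fold change among the 10 genes named for the family, at a log2 of 1.19 (SE 0.34, 95% interval 0.48 to 1.90), or 0.68 without the second BHT_CHO library. It averaged 1.33 CPM with the BHT compounds and 0.678 CPM with the others. LRRC24 thus reached the 1 CPM needed for ranking only where it was higher, and its place rests partly on that filter. Its levels were low and uneven, at 0.436 and 0.923 CPM with BHT, 0.532 and 2.57 CPM with BHT_CHO and 1.80 and 1.71 CPM with BHT_COOH, against 0.154, 0.588 and 1.38 CPM in the others. One BHT_CHO library held the highest value and the other BHT_CHO library lay below the median of the other antioxidants. On the lower side, TTC37, a subunit of the SKI complex that feeds RNA to the exosome, measured 36.7 and 44.4 CPM with BHT, 39.1 and 40.1 CPM with BHT_CHO and 54.5 and 52.9 CPM with BHT_COOH, and the others ran from 35.1 to 60.8 CPM around a median of 49.7. The low values belonged to BHT and BHT_CHO and not to BHT_COOH, and the family log2 fold change was -0.17 (SE 0.054). CASP8AP2, a nuclear protein needed for histone mRNA processing, followed at -0.28 (SE 0.083), BRCC3, a deubiquitinase, at -0.24 (SE 0.077), and C2orf92 at -0.63 (SE 0.18). MOG, which encodes a myelin glycoprotein, came nearest to a clean split: the 6 BHT libraries ran from 0.871 to 1.43 CPM and the 12 others from 1.42 to 4.29, with 1 slight overlap, but its level was low and its adjusted p in edgeR was 1.00. TTC37 and CASP8AP2 have transcripts of 38.5% and 38.3% GC, and LRRC24 one of 71.2%.

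**Figure D1:**
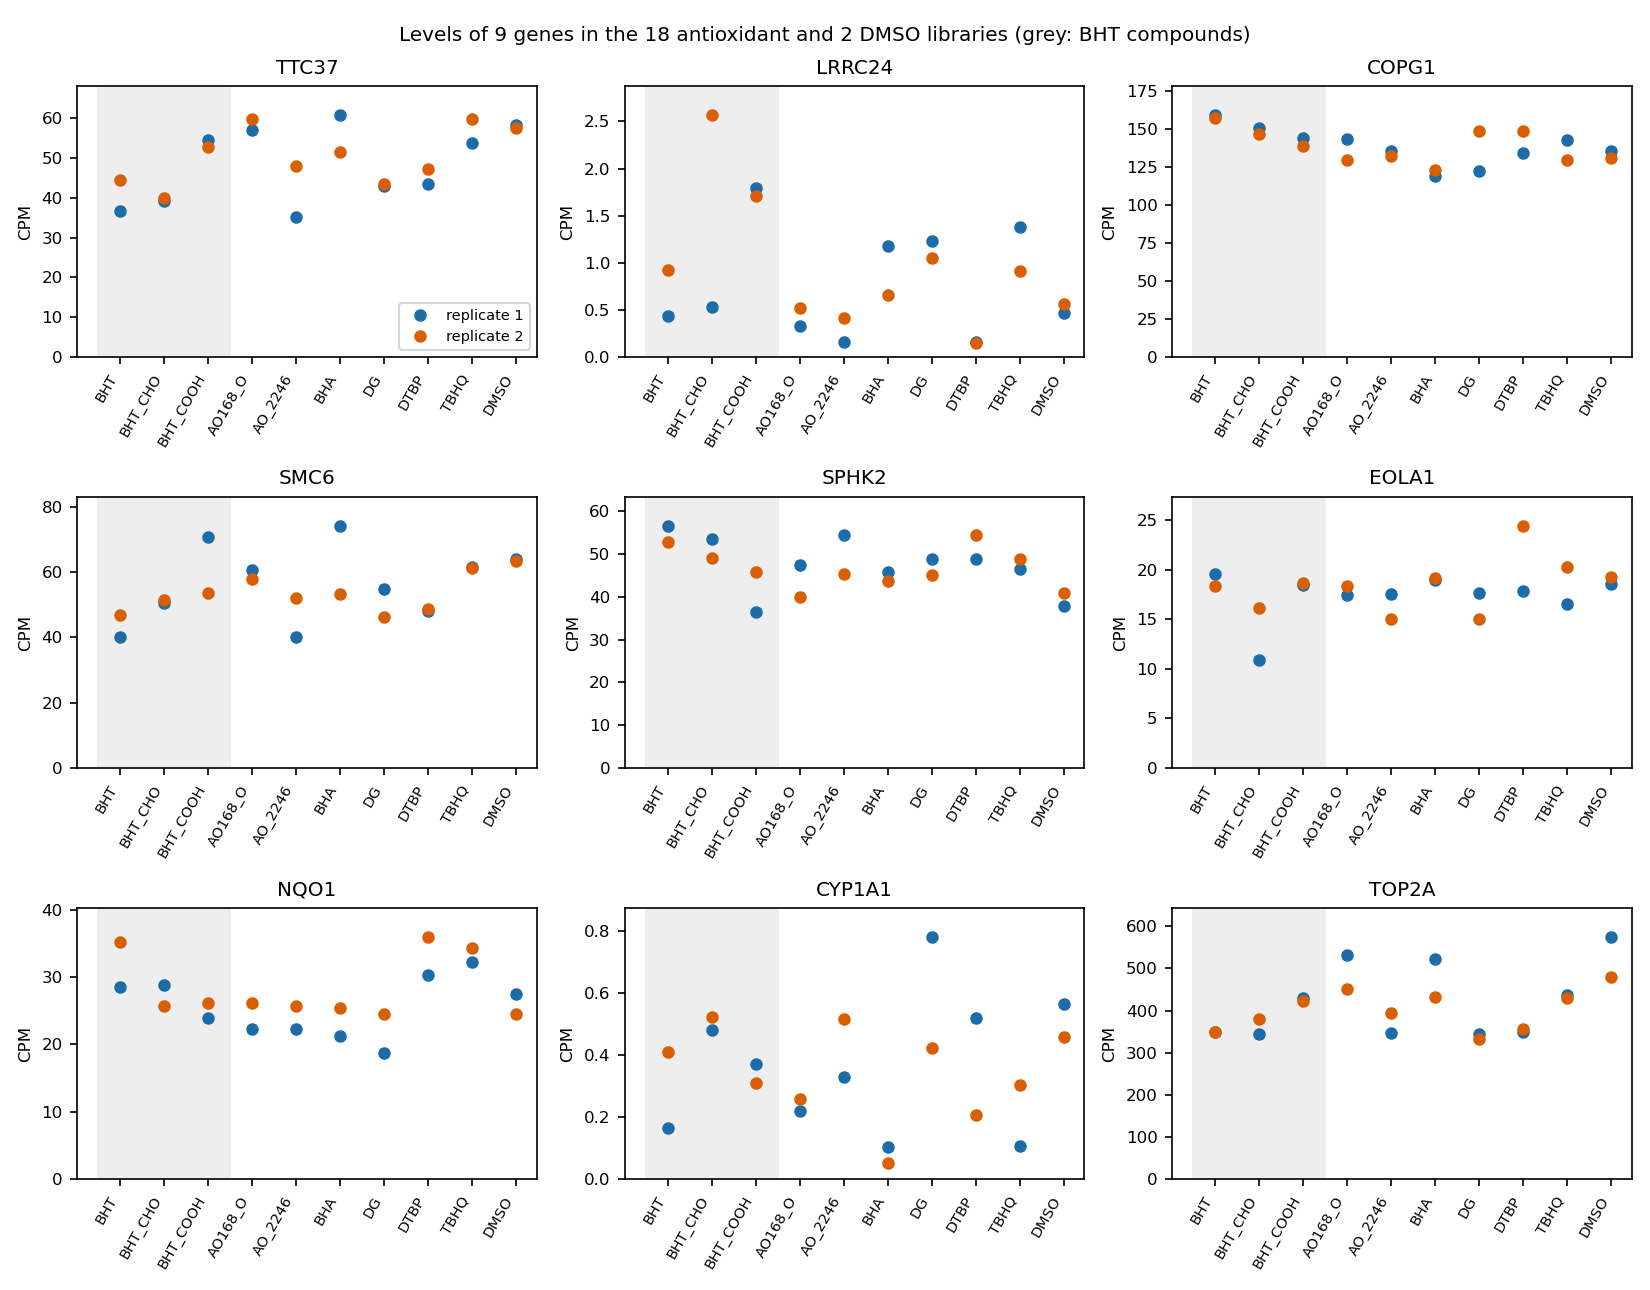
CPM (vertical axes, from 0) of 9 genes in each library of the 9 antioxidants and of DMSO (horizontal axes), 1 point per library coloured by replicate number, with the 3 BHT compounds shaded. The BHT points overlap those of the other antioxidants in every panel, and LRRC24 reaches 2.57 CPM in a single BHT_CHO library.

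Taken one at a time against the mean of the 6 other antioxidants, the 3 compounds each had 0 of 16113 genes (0%) past the adjusted threshold in edgeR and in DESeq2. These comparisons share the 12 other libraries, so their values stand side by side only. At an unadjusted p under 0.05, BHT had 617 genes (3.83%), 255 higher (1.58%) and 362 lower (2.25%). BHT_CHO had 330 (2.05%), 139 higher (0.863%) and 191 lower (1.19%), and BHT_COOH had 545 (3.38%), 306 higher (1.9%) and 239 lower (1.48%). DESeq2 gave 538, 267 and 447.

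With BHT, the genes of lowest p on the higher side were COPG1, CKAP4, CLDN7, FSCN2 and FXR2. CKAP4, a protein of the rough endoplasmic reticulum, stood at 170.3 and 146 CPM with BHT against 126, 134 and 151 CPM as lowest, median and highest of the others, and CLDN7, a tight junction claudin, at 161 and 144 CPM. The log2 fold changes were 0.22 (SE 0.062) and 0.24 (SE 0.070), and for both genes 1 of the 2 BHT libraries lay above all 12 others. Without that library the value of CKAP4 was 0.10. On the lower side were BRCC3, CENPF, TTC37, ZNF813 and ECT2. CENPF, a kinetochore protein made in G2 and mitosis, measured 97.9 and 104 CPM with BHT, 119.8 and 115 CPM with BHT_CHO and 159 and 140.2 CPM with BHT_COOH, where the others had 98.98, 147 and 189 CPM. ECT2, which drives cytokinesis, stood at 66.6 and 82.9, 82.3 and 84.03 and 99.3 and 88.6 CPM in the same order. For BHT the log2 fold changes of CENPF and ECT2 were -0.47 (SE 0.13) and -0.27 (SE 0.080), with an adjusted p of 1.00 in edgeR. That of ECT2 was -0.12 without the first BHT library and -0.45 without the second. Of the 362 lower genes at an unadjusted p under 0.05, 271 were in the low-GC class and 26 in the high-GC class.

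With BHT_CHO, RAB3D, a small GTPase of secretory vesicles, had the lowest p on the higher side, at 22.04 and 20.2 CPM against 15.5, 17.4 and 19.6 CPM in the others, a log2 fold change of 0.29 (SE 0.081). Both of its BHT_CHO libraries lay above all 12 others. RAB3D was picked for its low p, which favours such a separation. The share of all genes that showed it was not counted. TMEM214, MEPCE, ACOT1 and LRRC24 followed. ACOT1, a thioesterase that splits fatty acyl-CoA, measured 2.45 and 2.87 CPM with BHT, 4.05 and 3.51 CPM with BHT_CHO and 2.59 and 1.76 CPM with BHT_COOH. It was highest with the aldehyde and its log2 fold change for BHT_CHO was 0.58 (SE 0.19), though near-identical copies of this gene make its counts uncertain. LRRC24 had a log2 fold change of 1.53 (SE 0.47) for BHT_CHO, which became -0.014 without the second BHT_CHO library. It averaged 1.55 CPM with BHT_CHO and 0.678 CPM with the others, so its rank rests partly on the filter at 1 CPM. TTC37 was lowest in p on the lower side, at -0.33 (SE 0.085), then PTPDC1, CASP8AP2, ZNF763 and EOLA1.

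With BHT_COOH, the higher side held ITGB1BP2, LRRC24, STS, CDKAL1 and GNA14. LRRC24 stood at 1.80 and 1.71 CPM in the BHT_COOH libraries, both above the 1.38 CPM that was the highest of the 12 others, a log2 fold change of 1.70 (SE 0.46). STS, the sulfatase that frees steroids from their sulfates, measured 1.53 and 1.69 CPM with BHT, 1.49 and 1.41 CPM with BHT_CHO and 2.32 and 2.02 CPM with BHT_COOH, a log2 fold change of 0.74 (SE 0.22) for the acid. Its BHT_COOH libraries also lay above all 12 others, whose highest value was 1.87 CPM. ITGB1BP2 and GNA14 were high in the first BHT_COOH library, at 1.59 and 3.01 CPM, and stood at 0.570 and 1.45 CPM in the second. Without the first, their log2 fold changes of 1.24 and 0.84 were 0.33 and 0.22. ITGB1BP2 and LRRC24 averaged under 1 CPM in the other antioxidants and passed the filter through the BHT compounds. On the lower side were GNG3, DNAJC19, CYB5D2, COA3, which assembles cytochrome oxidase, and SDHAF1. DNAJC19, a protein import factor of mitochondria, measured 39.4 and 37.5 CPM with BHT, 39.7 and 38.8 CPM with BHT_CHO and 32.1 and 33.5 CPM with BHT_COOH and was below all 12 others in both BHT_COOH libraries, with a log2 fold change of -0.25 (SE 0.071). SDHAF1, an assembly factor of succinate dehydrogenase, measured 16.7 and 15.7 CPM with BHT, 13.8 and 14.6 CPM with BHT_CHO and 12.7 and 12.5 CPM with BHT_COOH, and 12.4 and 10.9 CPM with DMSO. LRRC24, STS and DNAJC19 were picked for low p, which favours 2 libraries lying apart from all 12 others. How many of all genes did so was not counted. All adjusted p-values were 1.00 in edgeR, so none of these genes passed.

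The second question was what changes as the methyl group of BHT becomes an aldehyde and then an acid. The 3 pairs were compared in the same fit, with p-values adjusted over all 3 together. That fit had no term for replicate number, although same-numbered libraries deviated together. Its SEs and intervals therefore also hold any shift shared by libraries of 1 number. Counts with such a term are given at the end. Again 0 of 16113 genes (0%) passed in any pair, by edgeR or by DESeq2, and a joint test for any difference among the 3 compounds gave 0 (0%), with 450 genes (2.79%) at an unadjusted p under 0.05 in edgeR, 400 in DESeq2. BHT_CHO against BHT had 157 genes at an unadjusted p under 0.05 (0.974%), 84 higher (0.521%) and 73 lower (0.453%), with 116 by DESeq2. BHT_COOH against BHT had 812 (5.04%), 497 higher (3.08%) and 315 lower (1.95%), with 735 by DESeq2. BHT_COOH against BHT_CHO had 560 (3.48%), 353 higher (2.19%) and 207 lower (1.28%), with 513 by DESeq2. The median absolute log2 fold change was 0.082, 0.13 and 0.12 in that order, and the median SE was 0.17 in each pair. The 95% interval lay within 1 log2 unit of 0 for 81.7%, 79.6% and 80.6% of genes, so for the rest the interval of 2 libraries against 2 still held a 2-fold difference.

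The GC content of these genes was uneven. In BHT_COOH against BHT, 379 of the 497 higher genes were in the low-GC class and 41 in the high-GC class, whereas of the 315 lower genes 20 and 171 were. The median log2 fold change was 0.093 in the low-GC class and -0.065 in the high-GC class. For BHT_CHO against BHT the corresponding medians were 0.012 and -0.0075. With the same GC correction the counts at an unadjusted p under 0.05 became 608 for BHT_COOH against BHT, 470 for BHT_COOH against BHT_CHO and 185 for BHT_CHO against BHT, with 0 genes past the adjusted threshold in each.

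**Figure D2:**
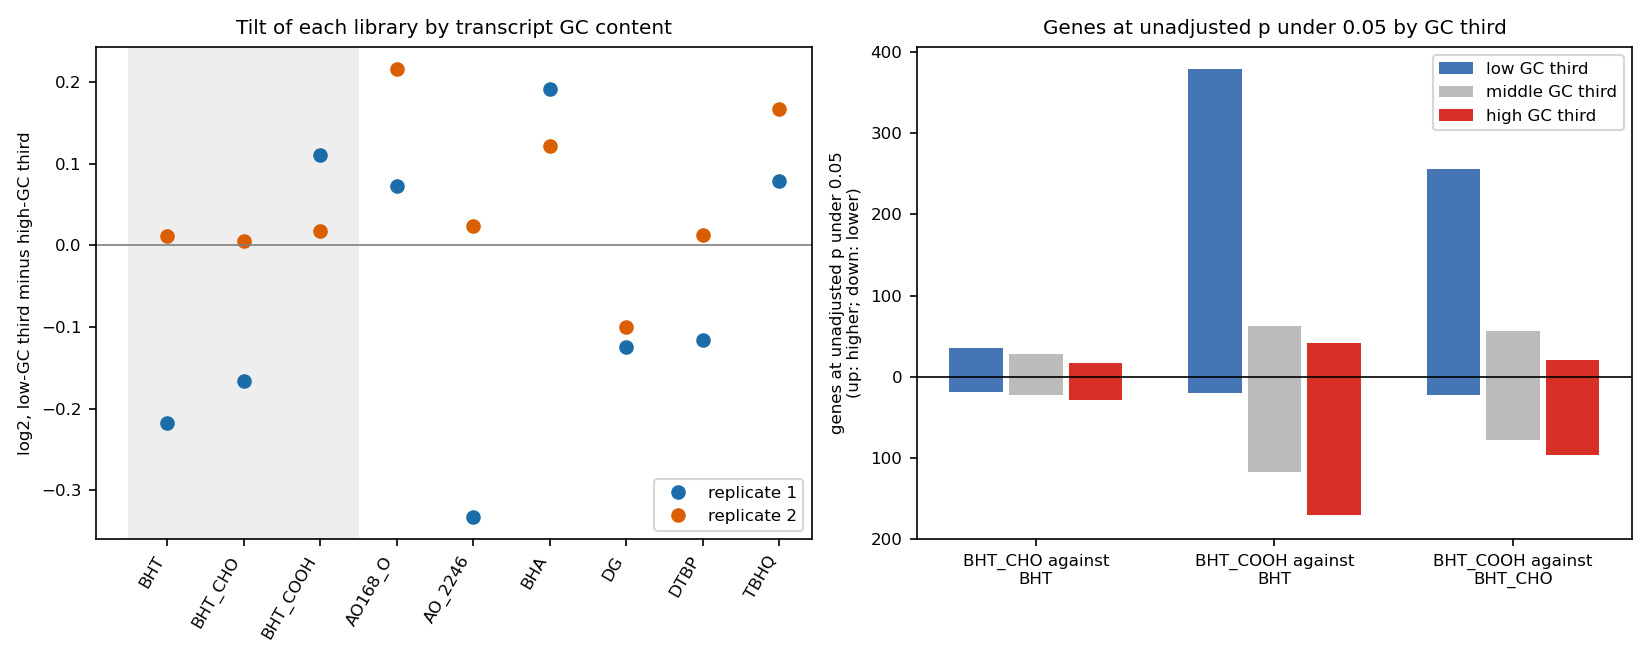
Left: the median log2 deviation of low-GC genes minus that of high-GC genes (vertical axis) in each library of the 9 antioxidants, 1 point per library coloured by replicate number. The first BHT and BHT_CHO libraries lie at -0.22 and -0.17 and the first BHT_COOH library at 0.11. Right: the number of genes at an unadjusted p under 0.05 in the 3 pairs, higher upward and lower downward, by class of GC content; 379 of the 497 genes higher with BHT_COOH than with BHT are in the low-GC class.

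Between the aldehyde and BHT, WDR92, a factor for the assembly of axonemal dynein, was lowest in p among genes higher with BHT_CHO. It measured 13.8 and 15.9 CPM with BHT, 19.8 and 17.97 CPM with BHT_CHO and 15.9 and 18.4 CPM with BHT_COOH. Both BHT libraries lay below both BHT_CHO libraries. Picking by low p favours such a separation, and the share of all genes that showed it was not counted. The log2 fold change of WDR92 was 0.35 (SE 0.12, 95% interval 0.11 to 0.58). ATF1, a transcription factor of the CREB family, AP4S1, an adaptor subunit, and IDNK, a gluconate kinase, were named beside CCDC63 on this side. Lower with the aldehyde were ADAMTSL3, FABP6, GPR75, TMEM63C and EOLA1. EOLA1 stood at 19.5 and 18.3 CPM with BHT, 10.9 and 16.1 CPM with BHT_CHO and 18.4 and 18.6 CPM with BHT_COOH, and 18.5 and 19.3 CPM with DMSO, so the low values were those of the aldehyde, and the first of them was lower than in any of the other 19 libraries shown. Its log2 fold change was -0.48 (SE 0.17, 95% interval -0.84 to -0.12), with -0.23 without the first BHT_CHO library and -0.80 without the second. ADAMTSL3, a secreted matrix protein, measured 1.31 and 2.05 CPM with BHT, 0.958 and 0.733 CPM with BHT_CHO and 1.27 and 1.71 CPM with BHT_COOH at a log2 fold change of -0.99 (SE 0.29), or -0.62 without the second BHT library. ADAMTSL3, CCDC63, IDNK and GPR75 reached the 1 CPM needed for ranking only in the group where they were higher, so the rank and fold change of these 4 genes rest partly on that filter.

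Between the acid and BHT, the genes higher with BHT_COOH were led by OR3A2, ZNF813, SMC6, PCDHB1 and SASS6. SMC6, a core subunit of a chromosome maintenance complex, measured 40.03 and 46.9 CPM with BHT, 50.5 and 51.4 CPM with BHT_CHO and 70.8 and 53.5 CPM with BHT_COOH and 64.01 and 63.3 CPM with DMSO. BHT was at the low end and the first BHT_COOH library at the high end, with a log2 fold change of 0.51 (SE 0.12, 95% interval 0.26 to 0.77, adjusted p = 1.00 in edgeR), or 0.30 without the first BHT_COOH library. SASS6, which builds the centriole cartwheel, followed at 12.04 and 17.4 CPM with BHT, 16.3 and 17.7 CPM with BHT_CHO and 24.4 and 20.6 CPM with BHT_COOH, a log2 fold change of 0.61 (SE 0.16), or 0.37 without the first BHT library. OR3A2, an olfactory receptor gene, had the lowest p of any gene in the 3 pairs, at 0.327 and 0.513 CPM with BHT, 0.532 and 0.943 CPM with BHT_CHO and 1.16 and 1.40 CPM with BHT_COOH, a log2 fold change of 1.59 (SE 0.38); its family holds close copies, and so do those of ZNF813 and PCDHB1, which makes their counts uncertain. OR3A2 also reached 1 CPM only with the acid among the pair. Lower with the acid were SPHK2, POMGNT1, FUNDC2, C17orf49 and FAM89B. SPHK2, a sphingosine kinase, stood at 56.5 and 52.8 CPM with BHT, 53.4 and 49.1 CPM with BHT_CHO and 36.5 and 45.7 CPM with BHT_COOH and 37.9 and 40.9 CPM with DMSO, a log2 fold change of -0.41 (SE 0.11, 95% interval -0.64 to -0.18), or -0.26 without the first BHT_COOH library. BHT lay above the acid in both libraries, and the DMSO libraries lay near the acid. SPHK2 was picked for its low p, which favours such a separation of BHT and acid. POMGNT1, an enzyme of O-mannose glycans, had a log2 fold change of -0.28 (SE 0.079). The transcripts of SMC6 and SASS6 have 37.6% and 35.2% GC, those of SPHK2 and C17orf49 63.2% and 61.0%.

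Between the acid and the aldehyde, TTC37 was first on the higher side, with a log2 fold change of 0.44 (SE 0.11, 95% interval 0.22 to 0.66). Both BHT_COOH libraries lay above both BHT_CHO libraries. Picking TTC37 by low p favours this, and the share of all genes that showed it was not counted. DDX10, an RNA helicase of ribosome assembly, measured 53.2 and 55.4 CPM with BHT, 47.3 and 50.5 CPM with BHT_CHO and 64.9 and 59.2 CPM with BHT_COOH, a log2 fold change of 0.34 (SE 0.099), and MLH3, a mismatch repair protein, followed at 0.42 (SE 0.12). COLCA1 and LOC107984264 were at low levels, the latter with 0.381 and 0.718 CPM with BHT, 0.106 and 0.314 CPM with BHT_CHO and 1.27 and 0.829 CPM with BHT_COOH. LOC107984264, and on the lower side CRYGN and ADAM12, reached 1 CPM only in the group where they were higher, so their rank rests partly on that filter. Also lower were TMA7, NXT1 and AKT1. TMA7, a small protein tied to translation, measured 78.05 and 62.7 CPM with BHT, 77.8 and 77.5 CPM with BHT_CHO and 58.8 and 59.9 CPM with BHT_COOH, so 1 BHT library was like the aldehyde and the other like the acid. AKT1, a kinase of growth factor signalling, stood at 116 and 114 CPM with BHT, 122 and 110.1 CPM with BHT_CHO and 92.6 and 102 CPM with BHT_COOH, a log2 fold change of -0.26 (SE 0.077). NXT1, a cofactor of mRNA export, stood at 15.1 and 16.9 CPM with BHT, 16.5 and 17.4 CPM with BHT_CHO and 11.3 and 13.1 CPM with BHT_COOH, a log2 fold change of -0.48 (SE 0.14).

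**Figure D3:**
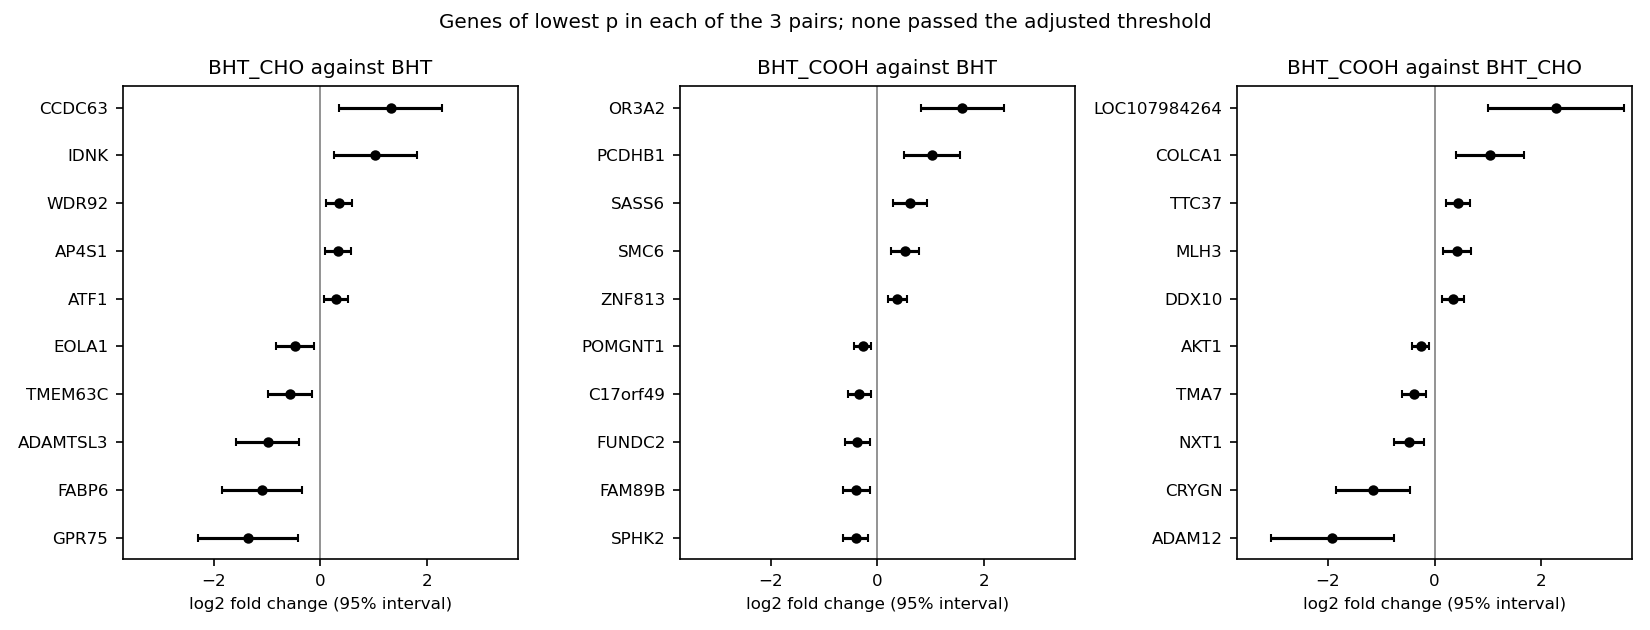
Log2 fold change (horizontal axis) with its 95% interval of the 5 genes of lowest p each way (vertical axis) in the 3 pairs of BHT compounds. The intervals of these genes, chosen for their low p, leave out 0, and none passed the adjusted threshold; the widest belong to genes of low level such as LOC107984264 and ADAM12.

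A steady gradient from methyl over aldehyde to acid was looked for as well. The libraries were ordered without overlap as BHT, BHT_CHO and BHT_COOH for 257 genes (1.59%), of which 114 (0.708%) increased toward the acid and 143 (0.887%) decreased. The 4 other possible orders held 76 (0.472%), 48 (0.298%), 109 (0.676%) and 96 genes (0.596%). The 2 orders with the aldehyde in the middle held the most genes, but 114 was close to 109 and no gradient is read. By GC tilt the first libraries stood in the order BHT, BHT_CHO and BHT_COOH, and the part of this tilt was not tested. ZNF813 was first among the ordered genes, at 18.9 and 19.4 CPM with BHT, 19.5 and 22.00 CPM with BHT_CHO and 24.5 and 25.2 CPM with BHT_COOH, then SMC6, PCDHB1 and SMC3, a subunit of cohesin, with a log2 difference between acid and BHT of 0.53 for SMC3. HIF1A, the oxygen-regulated transcription factor, had 0.30 and CENPF 0.57. Downward, FAM89B had -0.39, BAX, which promotes apoptosis, -0.36, COA3 -0.36 and SDHAF1 -0.37. These genes were picked for their order, so no test is given for it. The aldehyde departed from the mean of BHT and BHT_COOH for 0 genes (0%) in edgeR and DESeq2, with 214 (1.33%) at an unadjusted p under 0.05, 96 higher (0.596%) and 118 lower (0.732%), and 166 by DESeq2. ADAM12, ACOT1, TMA7, CRYGN and ZNF197 were lowest in p above that mean and ADAMTSL3, EOLA1, HEATR1, GPAM and DDX10 below it. ADAM12, CRYGN and ADAMTSL3 reached 1 CPM only on the side where they were higher, so their rank rests partly on that filter. ZNF197 was uneven, at 7.41 and 7.59 CPM with BHT, 14.7 and 19.2 CPM with BHT_CHO and 12.5 and 6.32 CPM with BHT_COOH, with BHT_COOH split and a log2 difference of 1.01 (SE 0.36). GPAM, which starts triglyceride synthesis, was lower with the aldehyde in both libraries, at 17.8 and 19.4 CPM with BHT, 14.5 and 15.4 CPM with BHT_CHO and 20.1 and 18.9 CPM with BHT_COOH, a log2 difference of -0.35 (SE 0.12). GPAM was picked for its low p, which favours such a separation.

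Genes of xenobiotic response came next, in the family against the other antioxidants. No member of any list below passed the adjusted threshold in any of the comparisons above. Over all 16113 genes the median log2 fold change was -0.0020, and 7898 lay above 0. Of 24 NRF2 targets, 20 lay above 0 with a median of 0.066, and 1 each way had an unadjusted p under 0.05, where the share of all genes was 1.66% higher and 1.5% lower. NQO1, the quinone reductase that is the standard readout of NRF2, measured 28.5 and 35.2 CPM with BHT, 28.8 and 25.7 CPM with BHT_CHO and 23.9 and 26.1 CPM with BHT_COOH, where the others had 18.7, 25.5 and 35.9 CPM and DMSO 27.5 and 24.5 CPM. The highest of the 6 was a BHT library and the lowest a BHT_COOH library, the sets overlapped, and the family log2 fold change was 0.091 (SE 0.091, 95% interval -0.095 to 0.28), which became -0.0082 without the BHT libraries. HMOX1, heme oxygenase, stood at 15.1 and 12.8 CPM with BHT, 13.6 and 15.2 CPM with BHT_CHO and 17.9 and 12.6 CPM with BHT_COOH, with a log2 fold change of 0.062 (SE 0.13). GSR, glutathione reductase, had the lowest p of the list, 0.13 above 0 on the log2 scale (SE 0.057) with an adjusted p of 1.00 in edgeR. The summed level of the 24 genes ran from 7659 to 8904 CPM in the BHT libraries and from 6683 to 8708 CPM in the others.

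Of 7 AHR targets tested, 5 lay above 0 with a median of 0.0059. CYP1A1, the P450 most sensitive to the aryl hydrocarbon receptor, was barely detected, at 0.163 and 0.410 CPM with BHT, 0.479 and 0.524 CPM with BHT_CHO and 0.370 and 0.311 CPM with BHT_COOH, and its log2 fold change was 0.45 (SE 0.36, 95% interval -0.29 to 1.19). CYP1B1 stood at 2.51 and 5.08 CPM with BHT, 2.24 and 3.77 CPM with BHT_CHO and 2.75 and 2.28 CPM with BHT_COOH, with 1 high BHT library, and -0.11 (SE 0.23). Of 7 CAR and PXR targets tested, 2 lay above 0 with a median of -0.11, and 1 of the 11 listed reached a mean of 1 CPM, so this response could not be read at this depth. UGT1A1 was at 0 in all 6 libraries, which allows up to 3 counts in each. Of 20 genes of aldehyde and ketone metabolism, 13 lay above 0 with a median of 0.034. ALDH6A1, a mitochondrial dehydrogenase, had the lowest p, at 0.12 (SE 0.054). ALDH1A3, a retinaldehyde dehydrogenase, measured 10.5 and 8.92 CPM with BHT, 8.89 and 6.02 CPM with BHT_CHO and 8.82 and 7.72 CPM with BHT_COOH, a family log2 fold change of 0.11 (SE 0.13), and its close relative ALDH1A1 was at a low level, 0.436 and 0.462 CPM with BHT, 0.799 and 0.262 CPM with BHT_CHO and 0.634 and 0.311 CPM with BHT_COOH. Between the aldehyde and BHT, where the median over all genes was 0.0015, the same 20 genes had a median log2 fold change of -0.043, with 9 above 0. Between the acid and BHT, where the median over all genes was 0, they had one of -0.11, with 7 above 0. Of these 20 genes, 1 was lower with the acid at an unadjusted p under 0.05, as were 1.95% of all genes. Of 20 glutathione and conjugation enzymes, 14 lay above 0 in the family with a median of 0.025, GSTT2B having the lowest p (0.44, SE 0.23), with 6.87 and 3.01 CPM in the BHT_COOH libraries.

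Genes of stress and lipid metabolism followed. Of 15 ATF4 targets, which respond to amino acid shortage and endoplasmic reticulum stress, 12 lay above 0 with a median of 0.076 in the family, and between the acid and BHT 13 did, with a median of 0.21 and none at an unadjusted p under 0.05. Of 15 p53 targets, 9 lay above 0 in the family (median 0.0096), and between the acid and BHT 2 did, with a median of -0.20 and 3 lower at an unadjusted p under 0.05, as were 1.95% of all genes. Some ATF4 and p53 targets also changed with the replicate number, as given below. Whether single libraries carried the differences between acid and BHT was not tested. Members of these lists and of those that follow can move together, so they are not counts of independent genes. The 6 metallothioneins tested had a median of -0.029 in the family and lay above 0 in all 6 cases for BHT_COOH against BHT (median 0.34), none at an unadjusted p under 0.05; their summed level ran from 54.5 to 111 CPM in the BHT libraries and from 45.1 to 105 CPM in the others. Of 22 cholesterol synthesis genes, 18 lay above 0 in the family with a median of 0.042, and CYP51A1, the lanosterol demethylase, had the lowest p of any listed gene in the family comparison, at 50.2 and 46.7 CPM with BHT, 48.4 and 46.7 CPM with BHT_CHO and 54.1 and 47.5 CPM with BHT_COOH with a family log2 difference of 0.14 (SE 0.046) and an adjusted p of 1.00 in edgeR. All 6 BHT values lay above the median of the 12 others, 43.9 CPM, and DMSO stood at 54.97 and 49.6 CPM. The 15 ferroptosis genes had a median of 0.033. Of 16 hypoxia and glycolysis genes, 5 lay above 0 (median -0.044) and 2 were lower at an unadjusted p under 0.05, as were 1.5% of all genes. LDHA, lactate dehydrogenase, measured 194 and 136 CPM with BHT, 214 and 214 CPM with BHT_CHO and 139 and 181 CPM with BHT_COOH against 146, 214 and 384 CPM, a log2 fold change of -0.38 (SE 0.14).

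Developmental genes were listed as well. Of 18 pluripotency genes, 17 lay above 0 with a median of 0.12, of 22 anterior neural ectoderm genes 6 did with a median of -0.16, and of 21 placode and surface ectoderm genes 9 did with a median of -0.072. Members of a list can move together, so these are not counts of independent genes. Summed pluripotency levels ran from 5285 to 7876 CPM in the BHT libraries and from 4597 to 7698 CPM in the others. Those of anterior neural genes ran from 2662 to 4120 and from 2682 to 4391 CPM. The family log2 fold change of POU5F1, 0.11, was -0.088, -0.061 and -0.0062 without the first BHT, BHT_CHO or BHT_COOH library. One compound at a time, against the same 12 libraries the anterior neural genes above 0 were 7 with BHT (median -0.15), 12 with BHT_CHO (median 0.041) and 2 with BHT_COOH (median -0.33), and the placode genes 16, 8 and 6 (medians 0.077, -0.048 and -0.26). SOX2, shared by pluripotent and neural cells, stood at 611 and 548 CPM with BHT, 706 and 589 CPM with BHT_CHO and 578 and 548 CPM with BHT_COOH, a family log2 fold change of 0.081 (SE 0.10), and KRT8, a keratin of simple epithelia, at 804 and 1096 CPM with BHT, 737 and 817 CPM with BHT_CHO and 584 and 897 CPM with BHT_COOH, a family log2 fold change of -0.17 (SE 0.14). PAX6, which marks anterior neural and eye fate, had a family log2 fold change of -0.40 (SE 0.41, 95% interval -1.24 to 0.45). GATA3, of surface ectoderm, stood at 14.1 and 27.3 CPM with BHT, 14.3 and 13.3 CPM with BHT_CHO and 12.8 and 14.2 CPM with BHT_COOH, with 1 BHT library apart from the other 5 and a family log2 fold change of -0.31 (SE 0.30). Fewer cells of a type and less RNA per cell cannot be told apart in such bulk libraries. Between the acid and the aldehyde, where the median over all genes was -0.0031, 1 of the 22 anterior neural genes lay above 0 with a median of -0.33 and none had an unadjusted p under 0.05, and between the acid and BHT 2 of 21 placode genes did with a median of -0.33. The first BHT_COOH library was lowest of the 6 in PAX6 and KRT8. Of 13 amnion and trophoblast genes tested, 5 lay above 0 with a median of -0.37, and of 8 mesendoderm genes 3 did with a median of -0.15, but TBXT, which both lists hold and which had the lowest p in each, measured 0.490 and 0.205 CPM with BHT, 0.213 and 0.157 CPM with BHT_CHO and 0.106 and 0.259 CPM with BHT_COOH and is a trace signal. Of 6 endothelium and blood genes tested, 1 lay above 0 (median -0.30), and of 12 mesenchyme genes 8 did (median 0.096). Of 14 retinoic acid genes, 5 lay above 0 in the family (median -0.035), and between the acid and BHT 2 did (median -0.14). The homeobox gene IRX1, included because of earlier results of these data, stood at 71.6 and 96.5 CPM with BHT, 82.8 and 68.9 CPM with BHT_CHO and 54.6 and 69.6 CPM with BHT_COOH, a family log2 fold change of 0.094 (SE 0.13). PRRG3, a membrane protein included for the same reason, stood at 31.7 and 35.4 CPM with BHT, 31.04 and 35.8 CPM with BHT_CHO and 32.02 and 33.5 CPM with BHT_COOH, a family log2 fold change of 0.11 (SE 0.070). It measured 18.3 and 21.6 CPM with AO168_O and 13.9 and 19.4 CPM with DMSO, below all 6 BHT libraries, while all other antioxidants were at 27.7 CPM or more.

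Of 25 cell cycle genes, 10 lay above 0 in the family with a median of -0.0043. TOP2A, the topoisomerase of dividing cells, measured 349 and 349 CPM with BHT, 344 and 381 CPM with BHT_CHO and 431 and 424 CPM with BHT_COOH, where the others ran from 332 to 531 CPM and DMSO stood at 575 and 479 CPM. It was highest with the acid among the 3, and the family log2 fold change was -0.10 (SE 0.060, 95% interval -0.23 to 0.019). Between the acid and BHT, 3 cell cycle genes were higher and 1 lower at an unadjusted p under 0.05, where 3.08% and 1.95% of all genes were, with 9 of 25 above 0.

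**Figure D4:**
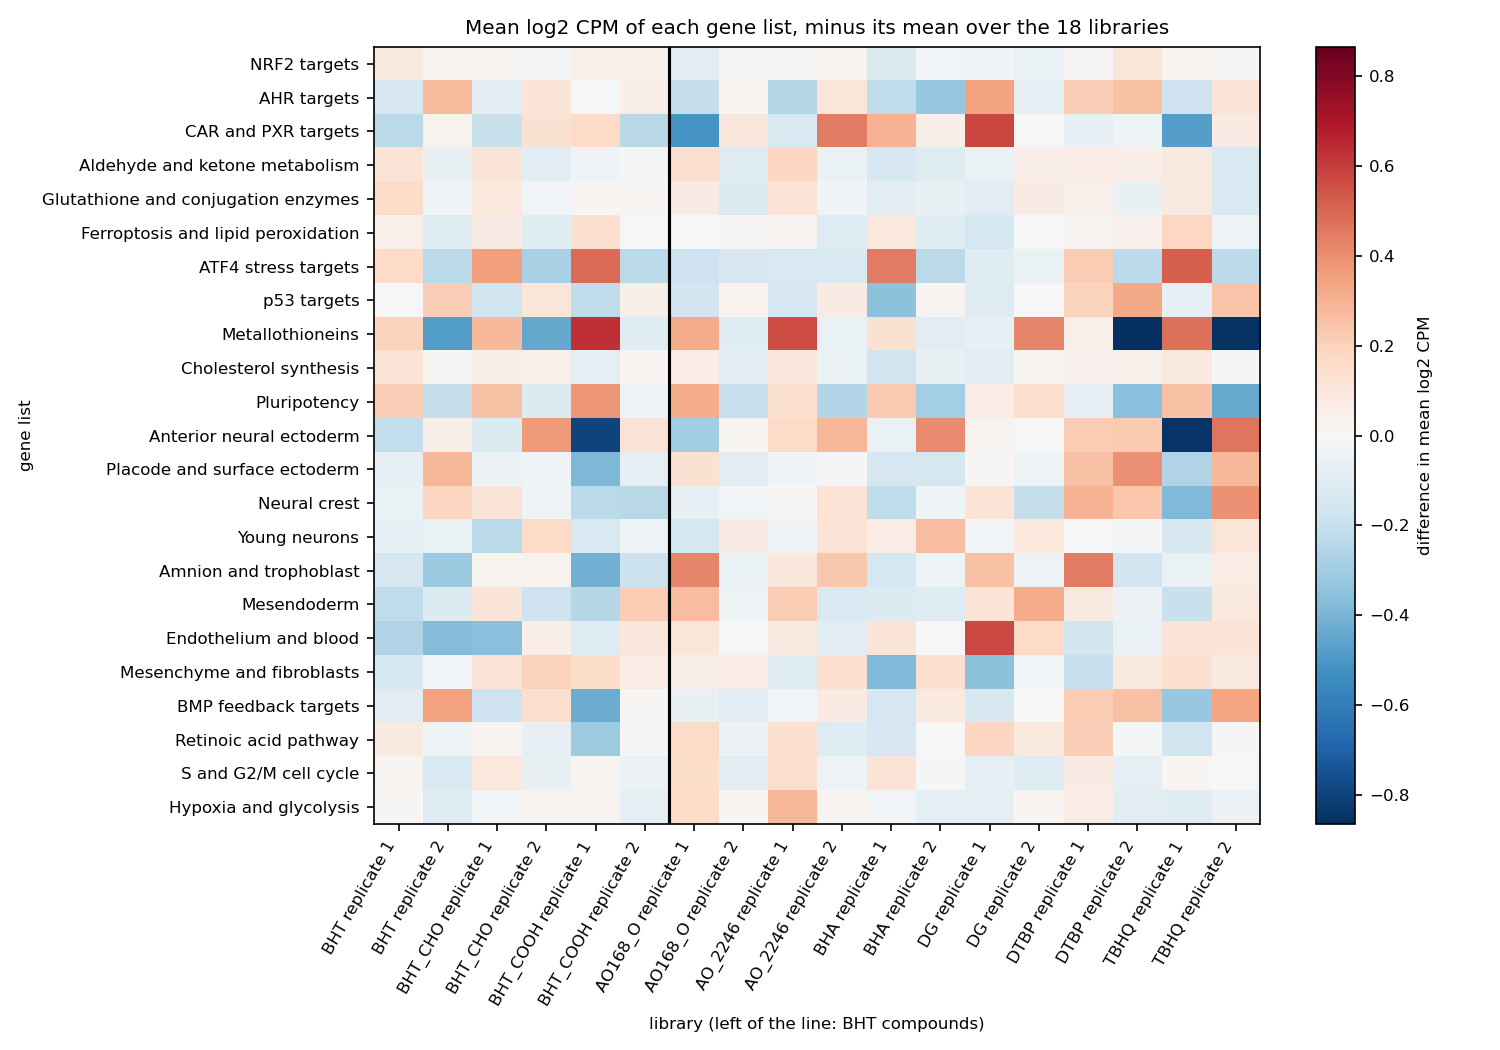
Mean log2 CPM of each gene list (rows) in each of the 18 antioxidant libraries (columns), as a difference from the list's mean over the 18, blue lower and red higher. Within the 6 BHT libraries left of the line, neighbouring columns of 1 compound often differ in colour for ATF4 targets, metallothioneins, pluripotency and anterior neural ectoderm, which lie higher, higher, higher and lower in the first library of each compound than in the second.

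Genes did pass the threshold when the second libraries of BHT, BHT_CHO and BHT_COOH were compared with the first ones. What the replicate number stands for is not given in the labels, and this comparison was added after seeing the data. In a fit of the 18 antioxidant libraries with compound and replicate number as terms, 258 of 15716 genes (1.64%) changed between the second and the first BHT libraries at an adjusted p under 0.05 in edgeR, 153 higher (0.974%) and 105 lower (0.668%), 64 of them at least 2-fold. In the 6 other antioxidants 1719 genes (10.9%) changed, 914 higher (5.82%) and 805 lower (5.12%). The 2 sets hold 3 and 6 compounds, and more pairs of libraries let more genes pass. Both counts therefore do not compare the size of the change. Of the 258 genes, 242 (93.8%) were also among the 1719 (14.1% of those), all in the same direction, and a test of the difference between both sets gave 0 genes (0%), with 171 at an unadjusted p under 0.05. The count for the BHT compounds moved with the libraries used. It was 1 without the pair of BHT and 0 without that of BHT_CHO or BHT_COOH. It was 100, 102 and 89 without the pairs of AO168_O, AO_2246 and BHA, 765 and 575 without those of DG and TBHQ, and DESeq2 gave 580. The count for the others ran from 468 to 3162 when 1 compound was left out.

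Among the 153 genes that rose in the second libraries, DIO3, which inactivates thyroid hormone, had the lowest p of those ranked. It measured 7.35, 3.62 and 3.06 CPM in the first libraries of BHT, BHT_CHO and BHT_COOH and 13.8, 12.3 and 9.07 CPM in the second, a rise of 1.39 on the log2 scale (SE 0.18, adjusted p = 0.0195 in edgeR), with 1.22 (SE 0.13) in the other antioxidants. DLK1, a Notch-like membrane protein, stood at 1439, 926 and 689.7 CPM in the first and 3182, 2803 and 2208 CPM in the second libraries, a log2 fold change of 1.48 (SE 0.21). No first library reached the lowest second one for either gene. FST, the activin antagonist follistatin, the homeobox gene DLX6 and LGI1, a secreted neuronal protein, rose by 0.82 (SE 0.11), 1.61 (SE 0.22) and 1.92 (SE 0.28), and AMOTL2, HS6ST2, ADAM28, TRIB2 and SKIDA1 by 0.55 to 1.86. Of 22 anterior neural genes 2 rose and 1 fell, where 0.974% and 0.668% of all genes did (median 0.49 over the list, 0.0087 over all genes). PAX6 measured 13.3, 10.8 and 5.71 CPM in the first and 37.03, 46.5 and 32.1 CPM in the second libraries, a rise of 2.00 on the log2 scale (SE 0.42, adjusted p = 0.0393 in edgeR). Of 21 placode genes 4 rose, DLX5, DLX6, KRT18 and MSX2, and of 14 BMP feedback targets 3 rose, the BMP antagonists NOG and GREM1 and the target MSX2, with NOG at 1.34 (SE 0.22). NEUROG2, which drives neuron formation, went from 0.490, 0.319 and 0.317 CPM to 3.03, 4.72 and 2.28 CPM, and 2 of 13 young neuron genes rose, NEUROG2 and STMN2. In the neural crest list, 2 of 13 rose, PAX7 and NGFR, and of 15 p53 targets 2 rose, CDKN1A and BTG2. SLC2A3, a glucose transporter, rose by 0.35 (SE 0.077).

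Among the 105 genes that fell in the second libraries was POU5F1. It measured 1046, 1022 and 953 CPM in the first libraries and 519, 552 and 629 CPM in the second, a log2 change of -0.83 (SE 0.17, adjusted p = 0.0364 in edgeR), against -0.77 (SE 0.12) in the other antioxidants and 876 and 523 CPM with DMSO. It fell with DNMT3B, a DNA methyltransferase of pluripotent cells, at -0.57 (SE 0.11), as 2 of 18 listed genes, and the list had a median of -0.37 with 1 gene above 0. Of 15 ATF4 targets 6 fell and none rose, where 0.668% of all genes fell, with a median of -0.57: ASNS, asparagine synthetase, at 249, 321 and 309.7 CPM in the first and 136, 140.1 and 139 CPM in the second libraries, PHGDH and PSAT1 of serine synthesis, CHAC1, a glutathione-degrading enzyme also on the ferroptosis list, SESN2 and DDIT4, which both restrain mTORC1. ASNS changed by -1.07 (SE 0.20) on the log2 scale, and by -0.55 (SE 0.14) in the other antioxidants. PSPH, the last enzyme of serine synthesis, changed by -0.47 (SE 0.074) and SHMT2, which uses serine in mitochondria, by -0.63 (SE 0.11). ALDH2, the main acetaldehyde dehydrogenase, was the 1 changed gene of 20 in aldehyde and ketone metabolism, at 81.5, 97.4 and 86.5 CPM in the first and 60.9, 68.1 and 67.1 CPM in the second libraries, a log2 fold change of -0.43 (SE 0.079). Of 24 NRF2 targets none changed, and of 6 metallothioneins none did, with a median of -0.68. None of the cholesterol synthesis, retinoic acid, mesenchyme or cell cycle genes changed. VRTN, KIF5A, EIF4EBP1, GLB1L3, GNAO1 and CNMD were the other genes of lowest p that fell, with log2 changes of -0.70, -0.49, -0.67, -0.69, -0.69 and -1.18.

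**Figure D5:**
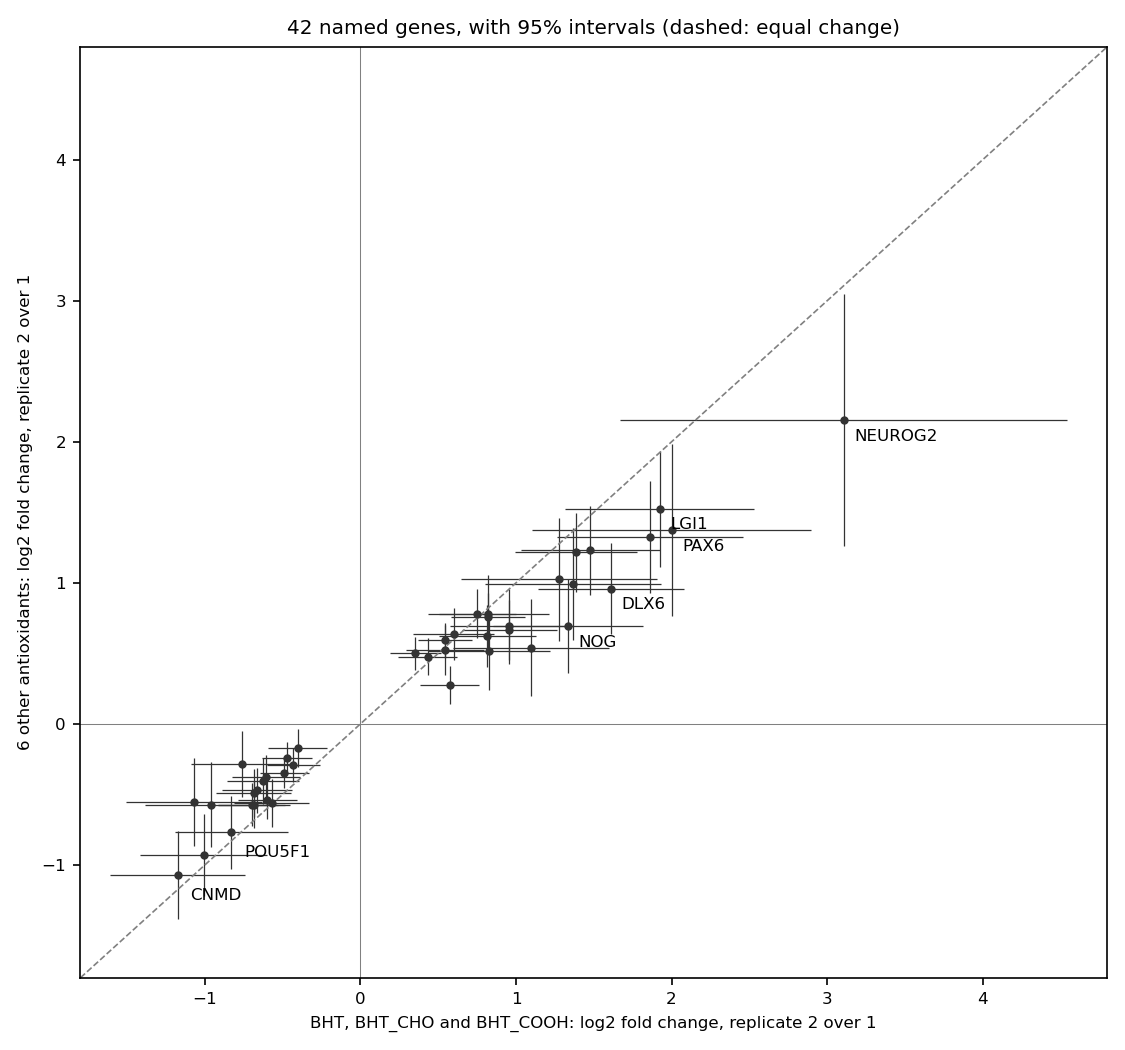
Log2 fold change between the second and first libraries in the BHT compounds (horizontal axis) and in the 6 other antioxidants (vertical axis), with 95% intervals, for 42 named genes; the dashed line marks equal change. All 42 have the same sign in both sets, from CNMD and POU5F1 at the lower left to PAX6 and NEUROG2 at the upper right. The 42 were picked for their change in the BHT libraries, and the share of all genes with the same sign in both sets is not given.

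Last, the 3 profiles were placed among the 9 antioxidants by the root mean square of log2 CPM differences over the 16113 genes. BHT and BHT_CHO were each other's nearest neighbour, at 0.254, and both had AO_2246 as the next neighbour, at 0.269 and 0.259. BHT_COOH lay nearest to BHA, at 0.270, then TBHQ, at 0.273, and was 0.290 from BHT. The mean over the 3 pairs was 0.274, against a mean of 0.296 over all 84 choices of 3 antioxidants, and 7 choices were smaller (exact permutation test over compounds, one-sided, p = 0.0952). The nearness of the 3 did not pass the threshold. Leaving out a library leaves 1 compound with a profile from a single library, so which compound loses it bears on this p and the changes are no sign of stability. Without a library of AO168_O or of TBHQ the distance was still 0.274 and the p was 0.0476, and without a single BHT, BHT_CHO or BHT_COOH library the distance ran from 0.296 to 0.352 and the p from 0.393 to 0.762 (exact, one-sided). With only the second libraries the p was 0.0952 and with only the first ones 0.321 (exact permutation, one-sided). The BHT pairs had 157 to 812 genes at an unadjusted p under 0.05 (median 560), pairs of a BHT compound with another antioxidant 227 to 1845 (median 841.5) and pairs of other antioxidants 263 to 2400 (median 1314), in which 0 to 8 genes passed the adjusted threshold in edgeR.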

How the data were processed

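The authors deposited expected counts per gene and library, per the file headers, for 19253 genes; the genome build was GRCh38.p13, as the submitters' processing notes list it. The aligner, the counter, the batches and whether reads were stranded are not stated in the labels, so genes that overlap on opposite strands cannot be told apart here. The labels' protocols describe mRNA enriched with oligo-dT. Counts were rounded, which changed 43.4% of values. edgeR 4.0.16 in R 4.3.3 (filterByExpr by group, TMM, glmQLFit, glmQLFTest) was fitted to all 46 libraries of day 8, 1 coefficient per group, with 23 residual degrees of freedom and a common biological coefficient of variation of 12.5%; 0.05 was the threshold after Benjamini-Hochberg adjustment over all genes. DESeq2 1.42.0, other scalings, filters and sets of libraries were alternatives. CPM are scaled by TMM, log2 CPM use a prior count of 2, SE is the standard error of a log2 fold change, and intervals are at 95%. Only genes with a mean of at least 1 CPM in the higher group were ranked, so the difference itself helped some low genes to enter: 10 each way past the threshold, otherwise 5 each way of lowest p, with the lowest p of each list in the family comparison, 15 set genes, and listed genes that changed with the replicate number. Members and lists were chosen with earlier results of these data known. GC content came from the longest protein-coding GENCODE transcript, found for 96.7% of genes. The main fit had no term for replicate number. Same-numbered libraries of the BHT compounds deviated together (correlation 0.257 to 0.396 in 3 of 3 pairs), as did 15 of 18 pairs with another antioxidant. The rest were the pairs with DG, at -0.096 with BHT, -0.089 with BHT_CHO and 0.050 with BHT_COOH. The first DG library also had the lowest total of the 18, 17918844 counts, and the most genes with a count, 17992. The test was tried on simulated data. Mitochondrially encoded genes, 0 of 13 in the table, were not analysed here. Results for some listed genes are not reported here.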

Additional observations from a re-analysis of the deposited data

Results flagged for a closer look

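Among 48 sets of the 6 BHT libraries examined for a value far from the others (the genes named in the family comparison, the total count and the GC tilt), 4 had one, where chance gives about 1 in 20. GATA3 stood at 27.3 CPM in the second BHT library and between 12.8 and 14.3 CPM in the other 5. GSTT2B stood at 6.87 CPM in the first BHT_COOH library and between 2.77 and 3.51 CPM in the others. MOG stood at 0.871 CPM in the first BHT library and between 1.26 and 1.43 CPM in the others. NINJ1, which encodes a membrane protein of cell rupture, stood at 76.6 CPM in the first BHT library and at most at 66.0 CPM in the others.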

How the results depend on the processing

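All 178 recomputed counts for the 9 comparisons between compounds stayed at 0, under other scaling, no filter, DESeq2, fewer libraries, each library or compound left out, the compound as the unit and GC correction (the last and the 18-library block fit were chosen after seeing the data). The replicate block also gave 0 genes in each comparison, with 623, 189, 976 and 655 at an unadjusted p under 0.05 for the family and the 3 pairs, and changed no other call. Of 2931 recomputed values of genes in these comparisons, 33 changed sign, all far from the threshold. Leaving out single libraries, the family value of ALDH1A1 ran from -0.31 to 0.32, CYP1B1 from -0.31 to 0.035, HMOX1 from -0.031 to 0.14, MT1E from -0.0010 to 0.30, NINJ1 from -0.0039 to 0.061, PAX6 from -0.98 to 0.027 and POU5F1 from -0.088 to 0.24, and LRRC24 for BHT_CHO from -0.014 to 2.25. Without BHT, NQO1 was at -0.0082, IRX1 at -0.0071 and NINJ1 at -0.034; NINJ1 was at -0.022 without BHA, -0.00033 with GC correction and -0.00025 with the block added. CYP1B1 was at 0.034 without BHT_COOH and 0.046 without DTBP, PRRG3 at -0.021 without AO168_O, and ALDH1A1 at -0.053, -0.087 and -0.032 without BHT_CHO, BHA or DG and -0.0067 with the compound as the unit. The cause was not tested. By replicate number, the BHT count ran from 0 to 765 and that of the others from 468 to 3162 without 1 compound, and DESeq2 gave 580 for BHT. Without 1 BHT compound, 125 of 126 values of the 42 genes named for them lost their call, with none reversed. The profile distance ran from 0.274 to 0.352 without single libraries and its exact one-sided p was 0.0476 without either library of AO168_O or TBHQ, which leaves that compound with 1 library and is no sign of stability. With 2 libraries per compound, the intervals of many genes still held a 2-fold difference between 2 compounds.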
